A study of Mus musculus with 12 samples.

Results

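The expression of 10 genes for secreted inflammatory signals was followed in dorsal root ganglia after nerve injury. They were the CC chemokines Ccl2 and Ccl7, the CXC chemokines Cxcl10, Cxcl12 and Cxcl14, the CX3C chemokine Cx3cl1, the interleukin-1 family members Il18, Il33 and Il1b, and Tnf. The set was given as a list of symbols, and all 10 symbols were found among the 24060 genes of the expression tables, which hold RPKM values (reads scaled by gene length and library size). Only 6 of the 10 passed the expression filter of at least 1 RPKM in at least 3 libraries and could be tested, namely Ccl2, Ccl7, Cxcl10, Cxcl12, Il18 and Il33. The other 4 were under the filter and are described by their values. Tnf stayed near 0 in all libraries, Cx3cl1 and Il1b exceeded 0.5 RPKM in 1 and 3 of 12, and Cxcl14 did so in 5, all of them injured.

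The ganglia hold the cell bodies of sensory neurons with satellite glia, Schwann cells, vessels and resident macrophages. All groups were male C57BL/6J mice, adult and 9 to 10 weeks old. The control group is labelled naive, and the injured groups were taken 1, 3 and 7 days after spared nerve injury, in which the tibial and common peroneal branches are ligated and cut while the sural branch is spared. Each of the 4 groups has 3 libraries. No group with sham surgery was analysed here, so anaesthesia and wounding cannot be told apart from the nerve lesion. The labels name neither the spinal level of the ganglia nor whether a library came from 1 animal or several, and p-values therefore measure the spread between these libraries.

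Chemokines are small secreted proteins that guide leukocytes through G protein-coupled receptors and are sorted by the spacing of their first cysteines. Interleukin-1 family cytokines and tumour necrosis factor signal through receptors that lead to NF-kB, and several of them need cleavage before they are active. In sensory ganglia both groups are known from studies of pain after nerve damage, where neurons, glia and macrophages have all been described as sources.

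Between 11332092 and 14782329 reads could be assigned to genes per library. Markers of sensory neurons were abundant in every library, with a summed level of the 8 markers between 731 and 1500 RPKM. Skeletal muscle transcripts stood apart in naive replicate 1, at 33.4 RPKM summed over 7 genes, and in day 7 replicate 2, at 23.7 RPKM, against 5.64 RPKM or less in the other libraries. Day 7 replicate 1 had the lowest agreement with its group, at r = 0.953 and 0.955 across genes. The RNA comes from whole ganglia, so a change in the number of cells of a type and a change in RNA per cell cannot be told apart.

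Of the 10 genes, Ccl2 lies on chromosome 11 from 82035571 to 82037453 (mm10, GENCODE M21) and Ccl7 follows on the same strand from 82045712 to 82047525, with 8258 bases between them. Il33 lies on chromosome 19 from 29925114 to 29960718, Il18 on chromosome 9 from 50554827 to 50581840 and Il1b on chromosome 2 from 129364570 to 129371139. Cxcl10 lies on chromosome 5 from 92346638 to 92348889, Cxcl12 on chromosome 6 from 117168535 to 117181367, and Cxcl14 on chromosome 13 from 56288643 to 56296551. Cx3cl1 lies on chromosome 8 from 94772009 to 94782427 and Tnf on chromosome 17 from 35199381 to 35202007. The annotation classes these 10 genes as protein-coding, and a value covers a gene's exons without separating UTRs. Cxcl10 shares 133 exon bases with Art3 on the opposite strand and Il1b shares 25 with the antisense gene Il1bos, and since the strandedness of the libraries is not given, reads from these stretches cannot be assigned to a strand.

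Promoter sequences are shown for Il33, the only member with a called change, and for Cxcl10, the member whose promoter held matches to all 3 motifs searched. Each is the 250 bases before an annotated start, 5′ to 3′ on the gene's strand, from RefSeq on GRCm38.p6. Il33 has a first start and a second start inside the gene. The regions are chr19:29924863-29925112 and chr19:29945540-29945789 on the plus strand for Il33, and chr5:92348890-92349139 on the minus strand for Cxcl10. Capitals mark motif matches.
Il33, first start: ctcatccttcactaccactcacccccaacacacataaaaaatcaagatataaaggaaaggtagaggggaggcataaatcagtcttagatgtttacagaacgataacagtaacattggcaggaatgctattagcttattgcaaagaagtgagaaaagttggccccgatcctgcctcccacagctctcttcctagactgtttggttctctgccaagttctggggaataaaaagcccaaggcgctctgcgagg
Il33, second start: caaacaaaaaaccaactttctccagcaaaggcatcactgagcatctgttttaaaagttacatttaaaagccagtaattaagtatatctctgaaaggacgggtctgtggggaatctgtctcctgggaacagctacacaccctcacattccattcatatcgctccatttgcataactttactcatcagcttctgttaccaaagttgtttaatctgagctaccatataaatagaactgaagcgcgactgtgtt
Cxcl10: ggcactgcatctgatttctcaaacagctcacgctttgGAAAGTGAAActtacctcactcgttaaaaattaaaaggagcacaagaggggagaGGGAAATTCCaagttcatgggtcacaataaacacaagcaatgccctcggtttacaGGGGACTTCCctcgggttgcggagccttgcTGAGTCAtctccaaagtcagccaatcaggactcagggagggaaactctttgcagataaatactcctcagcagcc
The motifs, searched on both strands, were an NF-kB type site (GGG, any 3 bases, then TTCC), an interferon-stimulated response element core (GAAA, any 2 bases, then GAAA) and the AP-1 site (TGA, any base, then TCA). Cxcl10 had GGGAAATTCC at 159 to 150 bases and GGGGACTTCC at 104 to 95 bases before its start, GAAAGTGAAA at 213 to 204 bases and TGAGTCA at 74 to 68 bases, and no match overlapped another. Neither Il33 window held these letters. Among all 32851 promoters of the table, 4.65% held the first motif, 2.98% the second and 6.75% the third. Of the 8 members with an entry, Cxcl14 was the only other one with a match, GAAACAGAAA at 172 to 163 bases before its start. A match is a description of the sequence and was not tested for use in these ganglia.

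In naive ganglia the levels differed widely between the 10 genes. Il18 was highest, at 7.15 ± 0.858 RPKM (SD, n = 3), followed by Cxcl12 at 4.37 ± 1.13, Cxcl10 at 2.72 ± 1.79, Il33 at 1.74 ± 0.277 and Ccl2 at 1.52 ± 0.124 RPKM. Ccl7 stood at 0.554 ± 0.352, Cxcl14 at 0.254 ± 0.119, Cx3cl1 at 0.242 ± 0.0414, Il1b at 0.207 ± 0.093 and Tnf at 0.0675 ± 0.0512 RPKM. Neighbours in this order had separate naive ranges only between Il18 and Cxcl12, between Ccl2 and Ccl7 and between Il1b and Tnf; the other neighbours overlapped. Over the 12 libraries, the median of Il18 lay above 71.1% of detected genes, that of Il33 above 49% and that of Tnf above 16.6%.

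**Figure D1:**
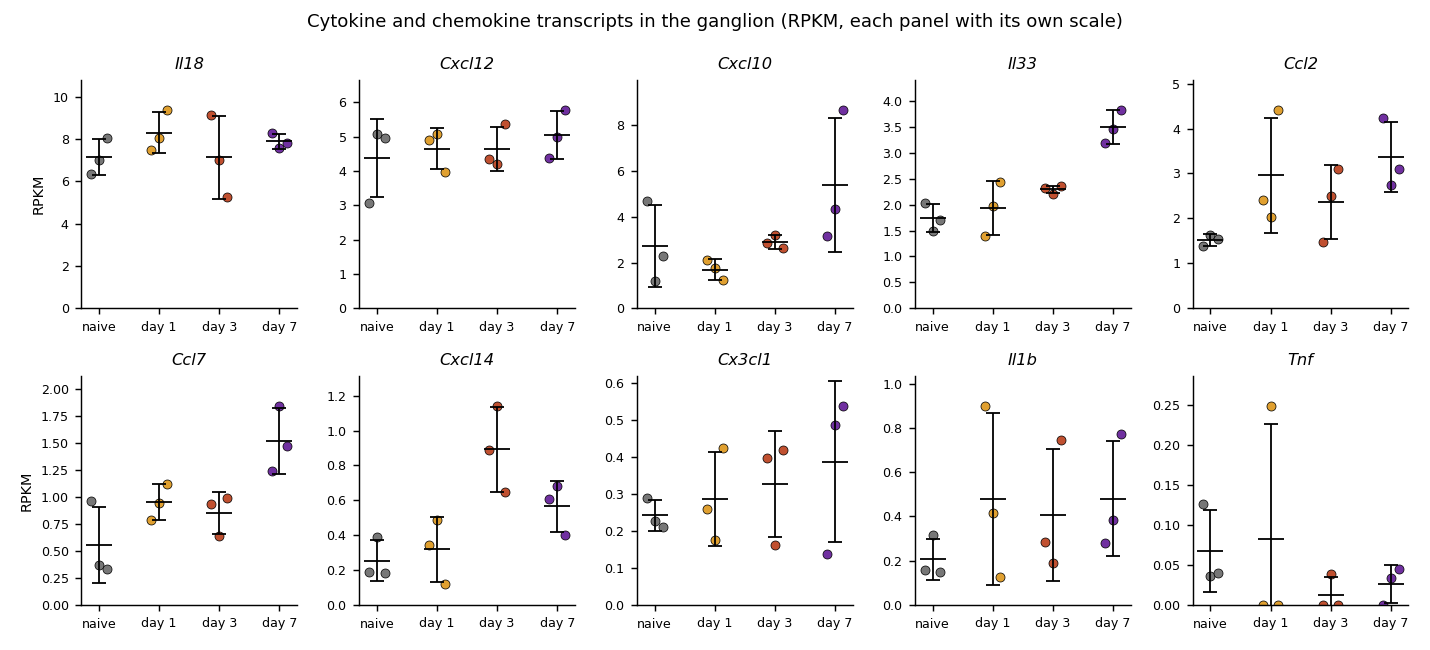
Level of each of the 10 genes in RPKM (y axis, linear from 0, own scale per panel) in the 4 groups (x axis); points are libraries, bars the mean and SD of 3 libraries. All 3 day 7 libraries lie above all 3 naive libraries for Il33, Ccl2, Ccl7 and Cxcl14, while Tnf does not exceed 0.249 RPKM anywhere.

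Il33, a nuclear alarmin that is released from damaged cells and activates mast cells and lymphoid cells, was higher at day 7. Its levels were 2.04, 1.49 and 1.7 RPKM in naive replicates 1, 2 and 3, then 1.4, 1.97 and 2.44 RPKM at day 1, 2.32, 2.21 and 2.35 RPKM at day 3 and 3.19, 3.46 and 3.83 RPKM at day 7. The day 1 libraries overlapped the naive range, the day 3 libraries lay just above it, and the lowest day 7 library exceeded all other 9 libraries. In reads, Il33 had 208 in the naive libraries and 429 in the day 7 libraries. On the log2(RPKM + 0.5) scale, which understates changes of low genes, Il33 rose at day 7 by 0.82 (SE 0.17, 95% interval 0.45 to 1.18, adjusted p = 0.0158 with limma, Benjamini-Hochberg over 14195 genes). The values were 0.11 (SE 0.17, adjusted p = 0.835) at day 1 and 0.30 (SE 0.17, adjusted p = 0.391) at day 3. Day 7 differed from day 1 by 0.70 (SE 0.17, adjusted p = 0.0779) and from day 3 by 0.51 (SE 0.17, adjusted p = 0.837), neither of which passed. The day 7 call did not hold when naive replicate 2 (adjusted p = 0.0824) or naive replicate 3 (0.0665) was omitted, nor when day 7 replicate 3 (0.0515) or the pair of libraries with muscle transcripts (0.0866) was, with log2 fold changes of 0.75, 0.81, 0.8 and 0.9. A test of any difference among the 4 groups called Il33 (adjusted p = 0.0348), as it did 4.78% of all tested genes, and no other member.

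Several macrophage markers rose at days 3 and 7. Of 10 macrophage markers 8 were tested, and 4 of them, Adgre1 (listed as Emr1), Csf1r, Mrc1 and Itgam, rose at day 3 and at day 7. Limma called 5.67% and 2.92% of all tested genes in either direction at these days. The summed level of the 10 markers was 36.4 to 48.2 RPKM in naive libraries, 37.3 to 40.8 at day 1, 63.1 to 102 at day 3 and 62.6 to 116 RPKM at day 7. Most of this sum was Lyz2, the lysozyme of myeloid cells, with means of 30.3 RPKM in naive, 25.2 at day 1, 58.2 at day 3 and 65.2 at day 7, and Lyz2 itself was not called (adjusted p = 0.0987 at day 3 and 0.0852 at day 7). In this list C1qa, a complement gene of macrophages, was listed at 0 in all naive libraries. It also stayed low after injury, at most 0.0633 RPKM at day 1, 0.234 at day 3 and 0.339 at day 7, and was not tested. At day 3 the count was 2 without naive replicate 3, without day 3 replicate 2 or without both libraries with muscle transcripts. Fibroblast markers summed to 123 to 201 RPKM in naive and 125 to 256 RPKM at day 7, and vessel markers to 68.7 to 71.5 and 64.2 to 75.9 RPKM. Both ranges overlapped, and limma called 0 of 5 fibroblast and 0 of 7 vessel markers at day 7 (1 each at an unadjusted p under 0.05, 0 by voom). The fibroblast marker Col3a1 was called lower at day 1 than in naive, by -0.71 (SE 0.13, limma adjusted p = 0.00798). It was higher at day 7 than at day 1, by 0.97 (SE 0.13, limma adjusted p = 0.00365). The part of any of these cells in the course of Il33 was not tested.

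Ccl2 and Ccl7, both of which attract monocytes, had higher means in each injured group, but no comparison passed with limma on all libraries at equal weight. Ccl2 stood at 1.38, 1.63 and 1.55 RPKM in naive libraries, 2.41, 2.04 and 4.42 RPKM at day 1, 1.47, 2.51 and 3.11 RPKM at day 3 and 4.23, 2.74 and 3.1 RPKM at day 7. The naive values were close together, and all day 1 and day 7 libraries lay above them, while 1 day 3 library fell inside the naive range. The log2 fold changes of Ccl2 were 0.72 (SE 0.27, 95% interval 0.15 to 1.29, adjusted p = 0.196) at day 1, 0.43 (SE 0.27, adjusted p = 0.442) at day 3 and 0.89 (SE 0.27, 95% interval 0.33 to 1.46, adjusted p = 0.101) at day 7.

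Ccl7 was lower than Ccl2 in every library. Its levels were 0.961, 0.373 and 0.33 RPKM in naive libraries, 0.785, 0.944 and 1.12 RPKM at day 1, 0.937, 0.633 and 0.989 RPKM at day 3 and 1.24, 1.84 and 1.47 RPKM at day 7. The 3 day 7 libraries were the highest of all 12, and naive replicate 1 lay among the day 1 and day 3 values. Counts behind these values were small, with 20 reads in the naive and 58 in the day 7 libraries. Ccl7 reached 1 RPKM in 4 libraries, all of them injured, so it entered the test through them. The log2 fold change at day 7 was 0.96 (SE 0.25, 95% interval 0.43 to 1.5) and missed the threshold (adjusted p = 0.055), whereas it passed without naive replicate 1, at 1.2 (adjusted p = 0.0236), and with array weights, which weight libraries by their fit, at 1.16 (adjusted p = 0.0105). At day 1 and day 3 it was 0.51 (adjusted p = 0.359) and 0.39 (adjusted p = 0.467).

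Cxcl10, an interferon-induced attractant of T cells, had the widest interval of the 6 tested members. It stood at 4.69, 1.19 and 2.28 RPKM in naive libraries, 2.11, 1.74 and 1.22 RPKM at day 1, 2.84, 3.22 and 2.63 RPKM at day 3 and 3.15, 4.32 and 8.67 RPKM at day 7. Naive replicate 1 exceeded all day 1 and day 3 libraries, and day 7 replicate 3 was the highest of the 12. Against naive the log2 fold changes were -0.41 (SE 0.35, adjusted p = 0.67) at day 1, 0.20 (SE 0.35, adjusted p = 0.829) at day 3 and 0.89 (SE 0.35, adjusted p = 0.278) at day 7. All day 7 libraries lay above all day 1 libraries, a difference of 1.30 (SE 0.35, 95% interval 0.54 to 2.07) that did not pass (adjusted p = 0.129). Of 14 tested genes of the interferon response, limma called 0 at each day against naive, beside 3.43%, 5.67% and 2.92% of all tested genes. At an unadjusted p under 0.05 there were 4, 2 and 2 genes of this list. Voom, limma's weighted fit on recovered reads, called 2, 0 and 0 of them. The list medians were -0.11, 0.02 and 0.21 beside -0.01, 0 and 0 for all tested genes.

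Cxcl12 and Il18, the most abundant members in naive ganglia, overlapped between all groups and had no call. Cxcl12, the ligand of Cxcr4 that retains leukocytes and guides neurons, stood at 3.07, 5.08 and 4.97 RPKM in naive libraries, 4.91, 5.08 and 3.97 RPKM at day 1, 4.34, 4.2 and 5.38 RPKM at day 3 and 4.38, 4.98 and 5.79 RPKM at day 7. The lowest of the 12 values was naive replicate 1. The log2 fold changes of Cxcl12 were 0.11, 0.07 and 0.18 at days 1, 3 and 7, and the 95% intervals together ran from -0.35 to 0.61. Without naive replicate 1 all 3 turned negative, to -0.14, -0.17 and -0.06.

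Il18, a cytokine that is activated by caspase-1 and drives interferon-gamma production, stood at 6.36, 7.02 and 8.06 RPKM in naive libraries, 7.46, 8.07 and 9.39 RPKM at day 1, 9.15, 7.01 and 5.25 RPKM at day 3 and 8.3, 7.58 and 7.8 RPKM at day 7. Day 3 held the lowest library and the second highest. The log2 fold changes were 0.21 (95% interval -0.19 to 0.61), -0.06 (-0.46 to 0.35) and 0.11 (-0.29 to 0.51), with adjusted p-values of 0.681, 0.92 and 0.891.

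**Figure D2:**
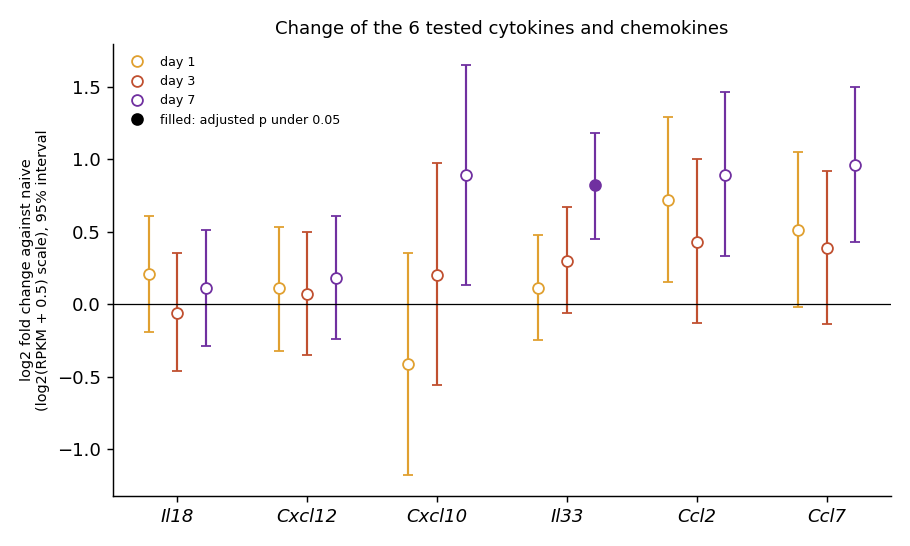
Log2 fold change against naive on the log2(RPKM + 0.5) scale (y axis) of the 6 tested genes (x axis) at days 1, 3 and 7, with 95% intervals from limma; filled points have an adjusted p under 0.05. Il33 at day 7, at 0.82, is the only filled point, and the day 7 values of Cxcl10, Ccl2 and Ccl7 lie at 0.89, 0.89 and 0.96 with wider intervals.

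Cxcl14, a chemokine of skin and other epithelia, was low with its highest values at day 3. Its levels were 0.191, 0.391 and 0.18 RPKM in naive libraries, 0.343, 0.488 and 0.122 RPKM at day 1, 0.888, 1.14 and 0.649 RPKM at day 3 and 0.61, 0.681 and 0.402 RPKM at day 7. With 1 library at 1 RPKM it lay just outside the filter, and Ccl7 with 4 just inside. All day 3 and day 7 libraries lay above all naive libraries, at day 7 by a narrow margin of 0.402 against 0.391 RPKM. The day 3 mean was 3.51 times the naive mean, on 77 against 22 reads. In a fit with no expression filter the day 3 log2 fold change was 0.86 (SE 0.23) and did not pass with limma (adjusted p = 0.0751).

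Cx3cl1, the membrane-bound chemokine fractalkine, which neurons are known to shed and which binds Cx3cr1 on macrophages and microglia, stayed near 0. It stood at 0.289, 0.227 and 0.21 RPKM in naive libraries, 0.26, 0.174 and 0.425 RPKM at day 1, 0.397, 0.161 and 0.419 RPKM at day 3 and 0.138, 0.486 and 0.537 RPKM at day 7. All groups overlapped, and 1 library of 12 exceeded 0.5 RPKM. Il1b, a fever-inducing cytokine of myeloid cells, stood at 0.158, 0.314 and 0.149 RPKM in naive libraries, 0.898, 0.413 and 0.126 RPKM at day 1, 0.282, 0.191 and 0.745 RPKM at day 3 and 0.28, 0.384 and 0.774 RPKM at day 7. Each injured group overlapped the naive range and held 1 library well above the other 2. Markers of neutrophils, which can make Il1b, summed to 15.1 to 17.5 RPKM in naive, 8.91 to 14.5 at day 1, 10.1 to 58.4 at day 3 and 12.8 to 32 RPKM at day 7 over 7 genes, and their part in these values was not tested. The library with the highest Il1b of all, day 1 replicate 1, had a sum of 10.6 RPKM, below every naive library. At day 3 replicate 3 was highest in both measures, while at day 7 the sum was highest in replicate 2 and Il1b in replicate 3. In the fit with no filter the largest log2 fold change against naive was 0.20 (SE 0.20, adjusted p = 0.826) for Cx3cl1 and 0.42 (SE 0.31, adjusted p = 0.712) for Il1b, both at day 7.

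Tnf, the prototype inflammatory cytokine, was barely detected, with 14 reads in all 12 libraries together. Naive replicates 1, 2 and 3 held 3, 1 and 1 reads, or 0.127, 0.036 and 0.0399 RPKM. Day 1 replicate 2 held 6 reads, or 0.249 RPKM, and replicates 1 and 3 held none. At day 3 replicate 2 held 1 read, and at day 7 replicates 2 and 3 held 1 read each. In the 5 libraries at 0, a count of 0 allows up to 3 reads, or 0.101 to 0.12 RPKM, counting error only. A change of Tnf was not detectable at this depth.

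Counted over the members, limma called 0 of the 6 tested genes at day 1, where 3.43% of all 14195 tested genes were called, 0 at day 3, where 5.67% were called, and 1, Il33, at day 7, where 2.92% were called. At an unadjusted p under 0.05 the members numbered 1, 0 and 4, and voom called 0, 0 and 1. Between days limma called 0 of 6 in each comparison, against 0.507% of genes between days 1 and 3, 0.972% between days 1 and 7 and 0% between days 3 and 7, where 716 genes had an unadjusted p under 0.05 and voom also called 0. At an unadjusted p under 0.05 the members numbered 0, 2 and 2 in these comparisons, and voom called 0 of them in each. All 3 injured libraries lay above all 3 naive libraries for 1 of the 10 members at day 1, 2 at day 3 and 4 at day 7, against 8.64%, 11% and 9.29% of the 21597 detected genes. The opposite, all 3 injured libraries below all 3 naive ones, was seen for 0 of 10 at each day, against 9.23%, 9.83% and 5.86% of genes. Between days, all 3 libraries of the later day lay above those of the earlier one for 2 members from day 1 to day 3 (Cxcl10 and Cxcl14), 3 from day 1 to day 7 (Ccl7, Cxcl10 and Il33) and 2 from day 3 to day 7 (Ccl7 and Il33), against 7.48%, 7.9% and 5.1% of genes. The days share the same naive libraries, so these counts are not independent of each other.

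The genes whose log2 values ran most alike to each tested member over the 12 libraries, among 13146 genes, are given as a description. For Il33 they were AI607873 (Pearson's r 0.899) and Tnni1 (0.864), for Ccl2 Pdgfb (0.891) and Taf5 (0.866), and for Ccl7 Prkab1 (0.874) and Smarcb1 (0.838). For Cxcl10 they were Podn (0.886) and Rab1b (0.86), for Cxcl12 Mttp (0.878) and Jpx (0.863), and for Il18 Asb3 (0.914) and Mir493 (0.892). No member was among the 2 genes most like another member, and the libraries share depth and group differences that enter each value.

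Several receptors of these ligands were higher after injury. Of 18 receptor genes 10 were tested, and 2 rose at day 1, 2 at day 3 and 3 at day 7, while none fell. Over all tested genes limma called 3.43%, 5.67% and 2.92% in either direction at these days. The list medians were -0.09, 0.34 and 0.06 beside -0.01, 0 and 0 for all tested genes. Tnfrsf1b and Cx3cr1 reached 1 RPKM only in injured libraries and entered the test through them. At day 7 the count was 1 without both libraries with muscle transcripts, and at day 1 it was 1 when that pair, day 1 replicate 1, naive replicate 1 or naive replicate 3 was omitted.

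Il1r1, the signalling receptor of interleukin-1, rose at each day. It stood at 5.24, 5.17 and 5.1 RPKM in naive libraries, 11, 8.74 and 9.47 RPKM at day 1, 11.6, 13.5 and 11.1 RPKM at day 3 and 11.2, 12.6 and 12.3 RPKM at day 7. The naive libraries were nearly equal and all 9 injured libraries lay above them. The log2 fold changes were 0.85 (SE 0.12, adjusted p = 0.00104), 1.12 (SE 0.12, adjusted p = 5.58e-05) and 1.12 (SE 0.12, adjusted p = 8.52e-05).

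Tnfrsf1b, the second receptor of Tnf, had levels of 0.483, 0.691 and 0.644 RPKM in naive libraries, 1.66, 1.62 and 1.71 RPKM at day 1, 2.93, 1.7 and 2.02 RPKM at day 3 and 1.53, 2.2 and 2.36 RPKM at day 7. All injured libraries lay above all naive ones. It rose by 0.98 (SE 0.21, adjusted p = 0.0169) at day 1, 1.26 (SE 0.21, adjusted p = 0.00197) at day 3 and 1.16 (SE 0.21, adjusted p = 0.00521) at day 7. The day 1 call ended without naive replicate 1 (0.0745), naive replicate 3 (0.053) or day 1 replicate 1 (0.0714), and without both libraries with muscle transcripts the adjusted p was 0.0959 at day 1 and 0.103 at day 7. Tnfrsf1a, the broadly expressed Tnf receptor, ranged from 1.24 to 4.53 RPKM with no call (log2 fold changes 0.52, 0.51 and 0.05).

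Of the chemokine receptors of monocytes and macrophages, Ccr2 rose at day 7 and Cx3cr1 had no call. Ccr2, the receptor of Ccl2 and Ccl7, stood at 1.96, 1.56 and 1.71 RPKM in naive libraries, 1.29, 1.72 and 1.24 RPKM at day 1, 2.26, 2.48 and 3.38 RPKM at day 3 and 4.04, 3.44 and 3.6 RPKM at day 7. It rose at day 7 by 0.88 (SE 0.19, adjusted p = 0.0173), a call that did not hold when naive replicate 2 (0.0791) or naive replicate 3 (0.0689) was omitted, nor when day 7 replicate 1 (0.0582) or the pair of libraries with muscle transcripts (0.0882) was. Cx3cr1, the receptor of Cx3cl1, stood at 0.385 RPKM in naive, 1.24 RPKM at day 3 and 1.4 RPKM at day 7 and missed the threshold (adjusted p = 0.0627 and 0.0578), whereas voom called both days (0.0112 and 0.00839), as did the fit without naive replicate 1 (0.0451 and 0.047). Of the macrophage markers given above, 4 of 8 rose at the same days, and their part in these receptor changes was not tested.

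The remaining tested receptors showed no call. Cxcr4, the receptor of Cxcl12, ranged from 0.697 to 2.81 RPKM, and Ackr3, its scavenging receptor, from 0.653 to 1.8 RPKM. Il1rap, the shared co-receptor of the interleukin-1 family, ranged from 1.42 to 3.02 RPKM. The specific receptors of 3 ligands were under the filter and not tested. Cxcr3 (for Cxcl10) stood at 0.17 RPKM or less. Il18r1 stood at 0.0876, 0.0997 and 0.138 RPKM in naive libraries and 0.394, 0.659 and 0.233 RPKM at day 1. Il1rl1, the receptor of Il33, stood at 0.236, 0.21 and 0.241 RPKM in naive libraries. It held 0.202, 0.196 and 0.065 RPKM at day 3 and 0.367, 0.367 and 0.434 RPKM at day 7. Il18r1 at day 1 and Il1rl1 at day 7 lay above all naive libraries, as did 8.64% and 9.29% of detected genes. Il1rl1 at day 3 lay below them, as did 9.83%. The other days overlapped the naive range. Ackr1, which binds many chemokines on red cells and venules, stood at 126 to 180 RPKM, but its annotation shares 361 exon bases with the neighbouring Cadm3 on the same strand, so its level is uncertain.

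**Figure D3:**
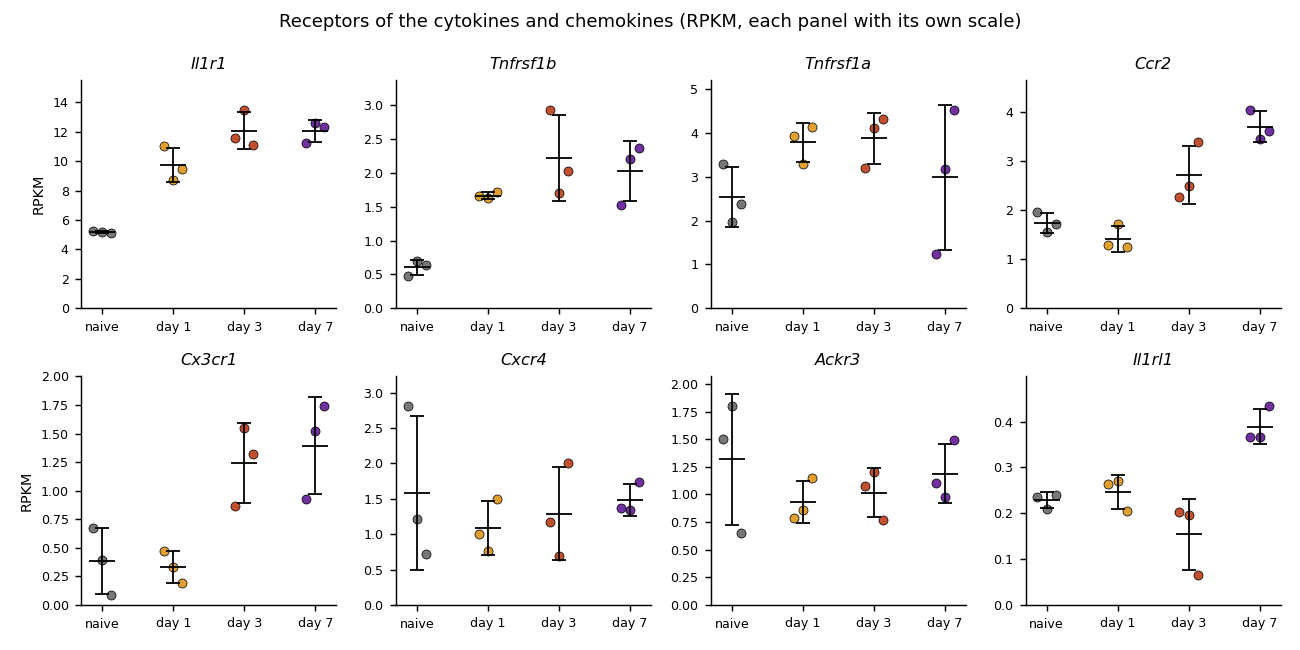
Level of 8 receptor genes in RPKM (y axis, linear from 0, own scale per panel) in the 4 groups (x axis); points are libraries, bars the mean and SD of 3 libraries. All 9 injured libraries lie above the naive ones for Il1r1 and Tnfrsf1b, and Ccr2 and Cx3cr1 are highest at days 3 and 7.

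Of 12 listed genes that process or block these cytokines, 9 were tested, with 0 called at day 1 by limma (1 at an unadjusted p under 0.05 and 0 by voom), 1 higher at day 3 and 2 higher at day 7, and list medians of 0.1, 0.09 and 0.19. Among all tested genes, limma called 3.43%, 5.67% and 2.92% in either direction at these days. Ctss, a lysosomal protease of macrophages that cleaves Cx3cl1, stood at 4.05, 3.33 and 3.1 RPKM in naive libraries, 7.29, 11.3 and 9.11 RPKM at day 3 and 9.2, 19.3 and 18.2 RPKM at day 7. It rose by 1.25 (SE 0.20, adjusted p = 0.00175) at day 3 and by 1.92 (SE 0.20, adjusted p = 6.77e-05) at day 7, the days at which 4 of 8 macrophage markers rose, and their part in this was not tested. Casp4, an inflammatory caspase, rose by 0.73 (SE 0.18, adjusted p = 0.0488) at day 7, a call that ended in 13 of 22 alternatives (adjusted p up to 0.227). Casp1, which activates Il1b and Il18, had means of 4.99 to 6.16 RPKM, and Il18bp, the soluble inhibitor of Il18, of 11.1 to 13.3 RPKM, both with no call.

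Of 19 tested genes of NF-kB and MyD88 signalling, limma called 0 at day 1, 1 at day 3 and 0 at day 7, with list medians of 0.21, 0.13 and 0.22. At an unadjusted p under 0.05 there were 1, 3 and 5, and voom called 1, 2 and 2. Over all tested genes limma called 3.43%, 5.67% and 2.92% at these days, so 1 of 19 at day 3 is near that share. The called gene was Nfkbiz, a nuclear regulator induced by interleukin-1, which rose by 0.74 (SE 0.16, adjusted p = 0.0131) at day 3. The call for Nfkbiz did not hold when naive replicate 1 (0.0603) or naive replicate 3 (0.063) was omitted, nor when day 3 replicate 1 (0.0502), day 3 replicate 2 (0.0723) or the pair of libraries with muscle transcripts (0.0708) was.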

How the data were processed

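RNA of dorsal root ganglia was sequenced in 12 mouse libraries, 3 in each of 4 groups, after low-input amplification per the labels' protocols. The deposited values are RPKM per gene, a unit taken from the files; the submitters' processing notes name bcl2fastq 2.17, STAR, HTSeq, edgeR, limma and mm10 without their roles, and strandedness is not given in the sources used here. Whole reads were recovered from the RPKM steps for 99.8% of 21597 detected genes, within a tolerance of 0.05 reads, and give the reads printed and the input of voom. Depth was 11332092 to 14782329 recovered reads per library.

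Values were scaled by a trimmed mean of log ratios, tested as log2(RPKM + 0.5) with limma 3.58.1 (statmod 1.5.0, R 4.3.3) in 1 fit of all 4 groups over the 14195 genes with at least 1 RPKM in at least 3 libraries, and adjusted by Benjamini-Hochberg with a threshold of 0.05. The fit was run on simulated data with the same spread for every gene and changes planted only in better covered genes. That run does not cover low members such as Ccl7 and is not used for any result. Intervals are 95%, and floors of 3 reads cover counting error only. An exact permutation test of 3 against 3 libraries cannot go below p = 0.1 and was not used. Printed RPKM are unscaled.

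The members and gene lists were chosen with earlier results of these data known. Named genes were all members, their receptors, list genes called against naive or between days, and the 2 genes most like each tested member. Casp1, Il18bp, Il6, Lyz2 and C1qa were named outside this rule, without a limma call. Alternatives covered pseudocount, filter, scaling, the groups fitted, array weights, voom, a replicate block and libraries left out. A listed receptor is not reported here and was left out of the receptor list.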

Additional observations from a re-analysis of the deposited data

Results flagged for a closer look

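Differences between days after injury that passed the test were found for 4 genes of the related lists and for no member. Ccr2 was higher at day 7 than at day 1 by 1.11 on the log2 scale (SE 0.19, limma adjusted p = 0.0118), a call that ended in 3 of 21 alternatives, among them without day 1 replicate 1 (0.0507) or day 1 replicate 3 (0.0539). Ctss was higher than at day 1 by 1.02 at day 3 (SE 0.20, adjusted p = 0.04), a call that ended in 13 of 22 alternatives, and by 1.70 at day 7 (SE 0.20, adjusted p = 0.00349), which passed in all 22. Csf1 was higher at day 3 than at day 1 by 0.77 (SE 0.13, adjusted p = 0.022), a call that ended in 6 of 22 alternatives. Tnfsf10 was higher at day 7 than at day 1 by 0.86 (SE 0.19, adjusted p = 0.0487), a call that ended in 16 of 21 alternatives. In the same comparisons 3 of 8 tested macrophage markers were called higher than at day 1, by 1.03 and 1.28 at days 3 and 7 for Emr1, by 0.88 and 1.42 for Csf1r and by 1.21 and 1.08 for Mrc1, and their part in the differences of Ccr2 and Ctss was not tested. Of 5 tested fibroblast markers limma called 1 higher at day 7 than at day 1, Col3a1 by 0.97, and 0 at day 3. The part of fibroblasts in these differences was not tested either.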

How the results depend on the processing

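At day 7 against naive 1 member was called, with 0 under a filter at RPKM 5, which leaves Il33 out by construction, 0 without both libraries with muscle transcripts, 2 with array weights, and between 0 and 2 when 1 library was omitted. Between days 1 and 7 array weights called 1 member, Il33, in place of 0. The number of genes called at day 1 was 487, with 1844 under array weights, 277 without both muscle libraries and 218 to 618 with 1 library left out. At day 3 it was 805, with 1954 under array weights and 449 to 1085. At day 7 it was 415, with 258 when only the groups compared were fitted, 831 under array weights, 166 without both muscle libraries and 235 to 519. Between days 1 and 3 it was 72, with 147 by voom, 349 under array weights and 13 to 106. Between days 1 and 7 it was 138, with 27 for the compared groups alone, 238 by voom, 293 under array weights, 57 without both muscle libraries and 54 to 120. Between days 3 and 7 it was 0 (716 at an unadjusted p under 0.05, 0 by voom), with 4 under no filter and 0 to 2. Some of these settings use fewer libraries or genes, and the cause of the changed counts was not tested.

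Replicate numbers showed no clear pairing of the libraries: deviations of libraries with the same number correlated between -0.34 and 0.234, and 11 of 36 comparisons were best with their own number. With 3 libraries per group this check cannot exclude a pairing, and the labels do not say whether a number was shared. With the replicate block 31 genes were called between days 1 and 3 and 91 between days 1 and 7, and no count of called members moved.

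Uncalled values changed sign. Without both muscle libraries Cxcl12 stood at -0.14, -0.17 and -0.04 at days 1, 3 and 7, and under array weights Cxcl12 stood at -0.02 at day 3, Il33 at -0.06 at day 1 and Il18 at -0.02 at day 7. With 1 library left out Cxcl12 ranged from -0.14 to 0.24, from -0.17 to 0.20 and from -0.06 to 0.31, Il33 at day 1 from 0 to 0.27, Cxcl10 at day 3 from -0.17 to 0.59, Il18 at day 3 from -0.27 to 0.14 and Ccl7 between days 1 and 3 from -0.20 to 0.01. Members below 1 RPKM rest on few reads, which limits what can be detected.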

Other observations

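Among 40 other cytokine genes 13 were tested, and limma called 1 against naive at each day, Csf1, the growth factor of macrophages and microglia. At an unadjusted p under 0.05 there were 4, 3 and 2, and voom called 2, 1 and 1, Csf1 at each day and also Il6 at day 1. Over all tested genes limma called 3.43%, 5.67% and 2.92%. Il6, named after its values were seen, stood at 0.834, 0.11 and 0.121 RPKM in naive libraries and 1.5, 1.58 and 0.922 RPKM at day 1. It missed the threshold with limma at day 1 (1.21, SE 0.34, adjusted p = 0.0786). Il6 reached 1 RPKM only in injured libraries and entered the test through them. Its naive replicates 1, 2 and 3 held 13, 2 and 2 reads. Csf1 stood at 2.16, 2.65 and 2.23 RPKM in naive libraries, 10.7, 8.94 and 10.9 RPKM at day 1, 18.3, 17.4 and 18.6 RPKM at day 3 and 11.9, 15.6 and 14 RPKM at day 7. All 9 injured libraries lay far above the naive ones. Csf1 rose by 1.92, 2.68 and 2.30 on the log2 scale (SE 0.13, limma adjusted p = 1.37e-06, 2.08e-08 and 1.38e-07). The list medians were 0.28, 0.16 and 0.30 beside -0.01, 0 and 0 for all tested genes.

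Among 30 other chemokine genes 12 were tested, and limma called 0 at day 1, 1 at day 3 and 0 at day 7 (0, 3 and 2 at an unadjusted p under 0.05, and 0, 1 and 0 by voom). The limma share over all tested genes was 3.43%, 5.67% and 2.92%. Ccl24, an attractant of eosinophils, stood at 1.89, 1.02 and 1.64 RPKM in naive libraries and 0.484, 0.294 and 0.358 RPKM at day 3, where it fell by 1.19 (SE 0.28, adjusted p = 0.0229). The call for Ccl24 did not hold when naive replicate 1 (0.0881) or naive replicate 3 (0.0969) was omitted, nor when day 3 replicate 2 (0.0884) or day 3 replicate 3 (0.0686) was.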
